A study of Sus scrofa with 9 samples.

Results

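PN-1631-3p and PN-32286946-5p are 2 of the 426 putative new microRNA (miRNA) arms, and of the 526 arms in all, listed in small RNA libraries of pig muscle. They were chosen by name, for high levels in the fetal, newborn and day 30 libraries, so their levels at those stages are a description and carry no test. Each side of a precursor hairpin, 5p or 3p, can give a product, here called an arm, and PN arms are named for the listed start of their precursor. The tissue was the longissimus dorsi, a back muscle, of female pigs of the Jinhua breed. Sampling began with fetuses on gestation day 90 (E90) and went on at day 0, day 30, day 180 and 7 years after birth. A single library stood for each of E90, day 0 and day 30, while 3 replicate libraries stood for each of day 180 and 7 years. The 9 libraries came from 15 pigs. The sources used here do not say which pigs went into which library, and p-values therefore measure spread among libraries that may be technical.

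A miRNA precursor folds into a hairpin. The nuclease Drosha releases the hairpin in the nucleus and Dicer removes its loop, which leaves a duplex with short 3′ overhangs. An Argonaute protein keeps one strand of the duplex, and bases 2 to 8 of that strand, the seed, pair with target messenger RNAs. A product that starts a base or more upstream or downstream on the same hairpin therefore carries a different seed. In skeletal muscle, miRNAs are known for their part in the growth and differentiation of muscle precursor cells.

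The sequences listed for the main product of each locus are shown because their first base, and so their seed, differed between libraries. PN-1631-5p, from the opposite arm, is shown beside them because its first base was the same wherever it was listed. Capitals mark the seed, and T stands for U as in the deposited tables.
PN-1631-3p: tGGTGCCTgacgtcttggcagt
PN-1633-3p: tGTGGTGCctgacgtcttggca
PN-1631-5p: aGCCAGGGctgcaggcactgac
PN-32286946-5p: cCCGTCCCgtggtctccccg
PN-32286945-5p: tCCCGTCCcgtggtctcccc
PN-32286948-5p: cGTCCCGTggtctccccg

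The precursors of both members are shown as listed, with the arms the authors marked in capitals. The first lacks 3 unknown bases that open it in the deposited table.
PN-1631-3p precursor: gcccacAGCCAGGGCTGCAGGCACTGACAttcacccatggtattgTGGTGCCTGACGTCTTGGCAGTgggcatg
PN-32286946-5p precursor: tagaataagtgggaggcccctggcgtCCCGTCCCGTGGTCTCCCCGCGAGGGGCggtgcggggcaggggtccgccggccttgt

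PN-1631-3p was listed on the minus strand of a scaffold that the deposited table does not name, at 1631 to 1892, and PN-32286946-5p on the plus strand of chromosome 14, at chr14:32286946-32287205, both on the pig assembly Sscrofa10. These intervals span 262 and 260 bp and are longer than the listed precursors of 77 and 83 nt. No annotation of that assembly was used here, so the genes around them are not given, and apart from the overlapping entries of the locus itself no listed precursor lay within 10000 bp of PN-32286946-5p on chromosome 14.

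PN-1631-3p was the most abundant putative new arm in each of the 3 libraries up to day 30, and it became rarer with each stage. Levels are given in RPM, the copies per 1000000 high-quality reads. At E90 it was listed with 14212 copies, which is 2819 RPM (95% counting interval 2772 to 2865). The library of day 0 held 5947 copies, or 1331 RPM (1297 to 1365), and that of day 30 held 1549 copies, or 446 RPM (424 to 468). Of the day 180 libraries only replicate 1 listed it, with 140 copies (11.4 RPM, 9.61 to 13.5). Of the 7 years libraries only replicate 3 listed it, with 6 copies (0.639 RPM, 0.235 to 1.39). Among arms of both tables it ranked 4th in each of the first 3 libraries, where 165 to 207 arms were listed. The copies of both tables were 1.04 to 2.70% of the high-quality reads of these libraries, so this is no rank among all miRNAs of the muscle. All counting intervals are exact. Reads are not independent molecules, so the intervals cover counting error alone.

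In other adult libraries the same arm was listed from another first base. In 7 years replicate 1 and in day 180 replicates 2 and 3 the table held PN-1633-3p, a separate entry that starts 2 bases further upstream on the same arm and shares 20 bases with PN-1631-3p. PN-1633-3p had 8 copies (1.28 RPM) in 7 years replicate 1, and 106 copies (10.2 RPM) and 136 copies (15.1 RPM) in day 180 replicates 2 and 3. No library listed both entries. Summed over both, the 3p arm stood at 1.28, 0 and 0.639 RPM in 7 years replicates 1, 2 and 3 and at 11.4, 10.2 and 15.1 RPM in day 180 replicates 1, 2 and 3. The library at 0 allows up to 0.806 RPM, since 3 copies are taken as the limit of a count of 0. The 3 day 180 libraries thus held similar levels of the arm, although the entries taken singly put replicate 1 at 11.4 RPM and the other replicates at 0. The most abundant 3p sequence in E90, day 0, day 30, day 180 replicate 1 and 7 years replicate 3 had the seed of PN-1631-3p, and that in the other 3 libraries with the arm had the seed of PN-1633-3p. How many copies of the less abundant form each library held was not analysed here.

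**Figure D1:**
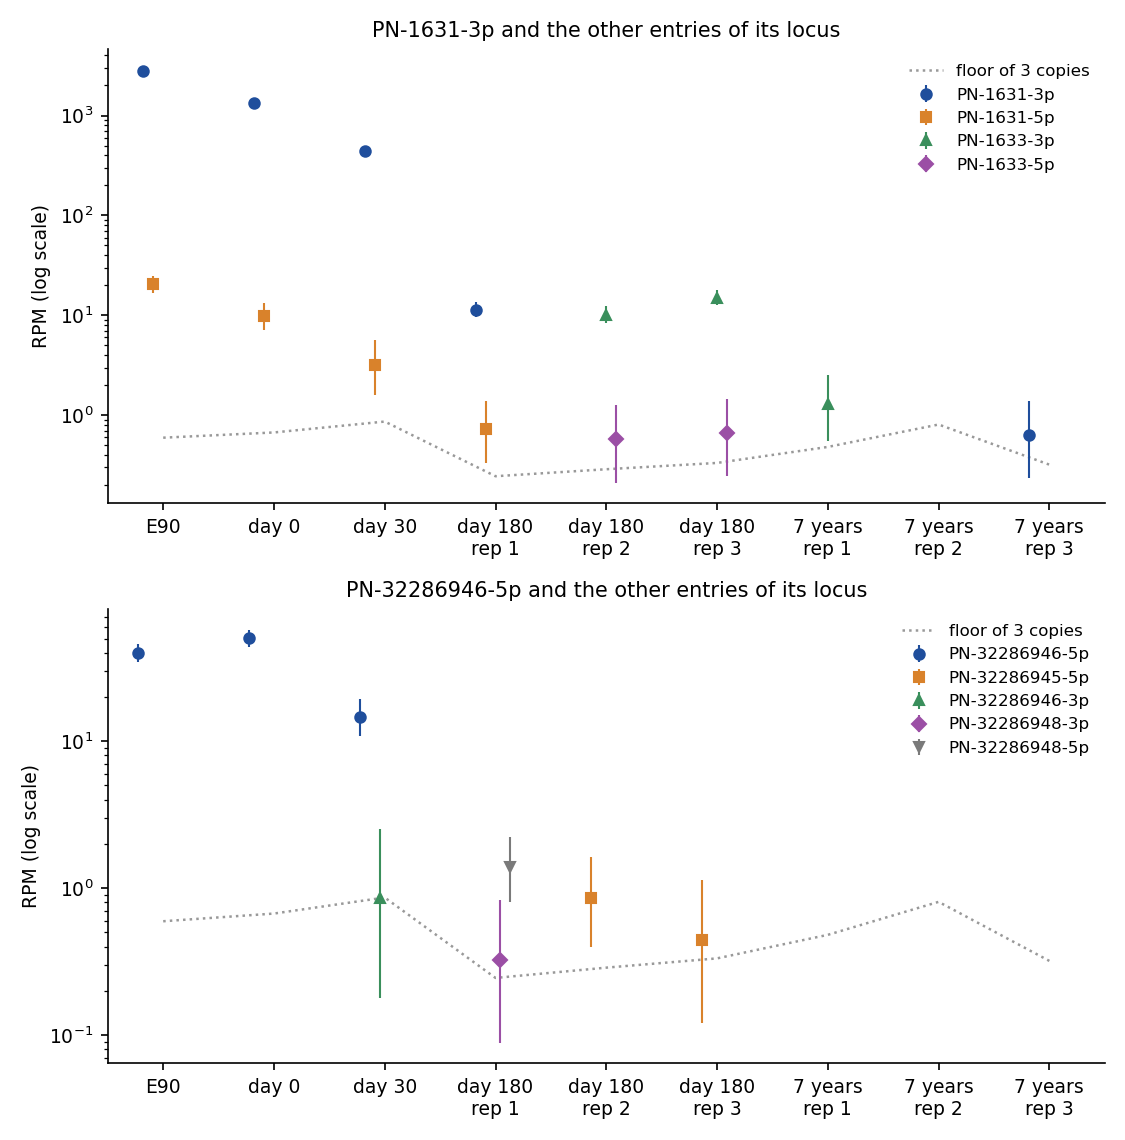
Level in RPM (log scale) of every listed entry of the PN-1631-3p locus (top) and the PN-32286946-5p locus (bottom) in the 9 libraries. Points are single libraries, bars are exact 95% counting intervals, an entry that a library does not list has no point, and the dotted line is the level of 3 copies. PN-1631-3p at 11.4 RPM in day 180 replicate 1 lies beside PN-1633-3p at 10.2 and 15.1 RPM in replicates 2 and 3.

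Such split entries are common in the table of putative new miRNAs. Of 76 pairs of entries that overlap on the same strand, share at least 16 bases and carry the same arm name, 75 had no library that listed both.

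The other arm of the same hairpin, PN-1631-5p, was also listed, at far lower levels. It had 103 copies (20.4 RPM) at E90, 44 copies (9.84 RPM) at day 0, 11 copies (3.16 RPM) at day 30 and 9 copies (0.734 RPM) in day 180 replicate 1. In day 180 replicates 2 and 3 the same product appeared under PN-1633-5p with 6 copies each, and no 7 years library listed it under either name. Every listed 5p sequence began at the same base of the precursor, while its end varied between 22 and 23 nt. In day 180 replicates 1 and 2 it differed from the precursor by C31A (positions counted from 1 at the first listed base, unknown bases included). That is the next to last base of the listed sequence, in entries of 9 and 6 copies, and the origin of the difference was not tested.

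The 5p arm made up a nearly constant share of the hairpin's copies up to day 30 and a larger share at day 180. The share was 0.720% at E90 (exact 95% binomial interval 0.588 to 0.872%), 0.734% at day 0 (0.534 to 0.985%) and 0.705% at day 30 (0.353 to 1.26%). In day 180 replicates 1, 2 and 3 it was 6.04% (2.80 to 11.2%), 5.36% (1.99 to 11.3%) and 4.23% (1.57 to 8.97%). In copies, 138, 135 and 141 of the 3p arm stood against each copy of the 5p arm at E90, day 0 and day 30, and 15.6, 17.7 and 22.7 in day 180 replicates 1, 2 and 3. At 7 years the 5p arm had 0 of 8 and 0 of 6 copies in replicates 1 and 3, which allows shares of up to 36.9% and 45.9%. The 3p copies of the early libraries, on which the choice of PN-1631-3p rests, enter these shares, so they were not tested.

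**Figure D2:**
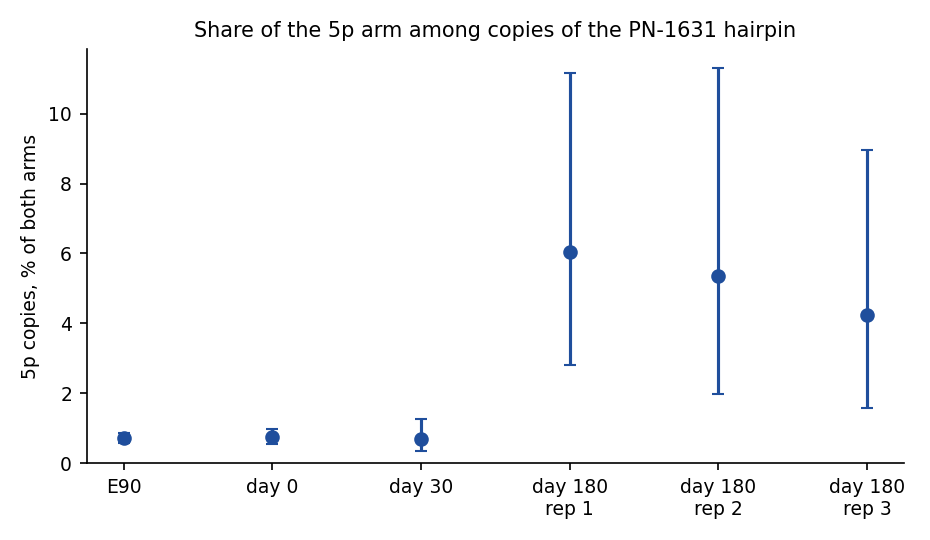
Copies of the 5p arm as a percentage of all copies of the PN-1631 hairpin (both arms, entries PN-1631 and PN-1633), in the libraries that listed both arms. Points are single libraries and bars exact 95% binomial intervals, with 0.705 to 0.734% up to day 30 and 4.23 to 6.04% at day 180.

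The listed precursor of PN-1631-3p folded into a hairpin in which both listed products lie on opposite sides. The predicted minimum free energy was −45.3 kcal/mol over 74 nt, or −0.61 kcal/mol per nt, with 29 base pairs. Of 320 putative new precursors, 85.9% were less stable per nt, and of 69 conserved ones 97.1%. Of the 22 bases of PN-1631-3p, 19 were paired, none with another base of the product itself. Paired with PN-1631-5p, PN-1631-3p left a 3′ overhang of 2 bases at the base of the stem, and the 5p one of 1 base at the loop, or of 2 for the form of 23 nt. Paired with the 23 nt form, PN-1633-3p left overhangs of 0 bases at both ends. The fold is a prediction from the sequence, and which ends the nucleases cut was not measured.

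**Figure D3:**
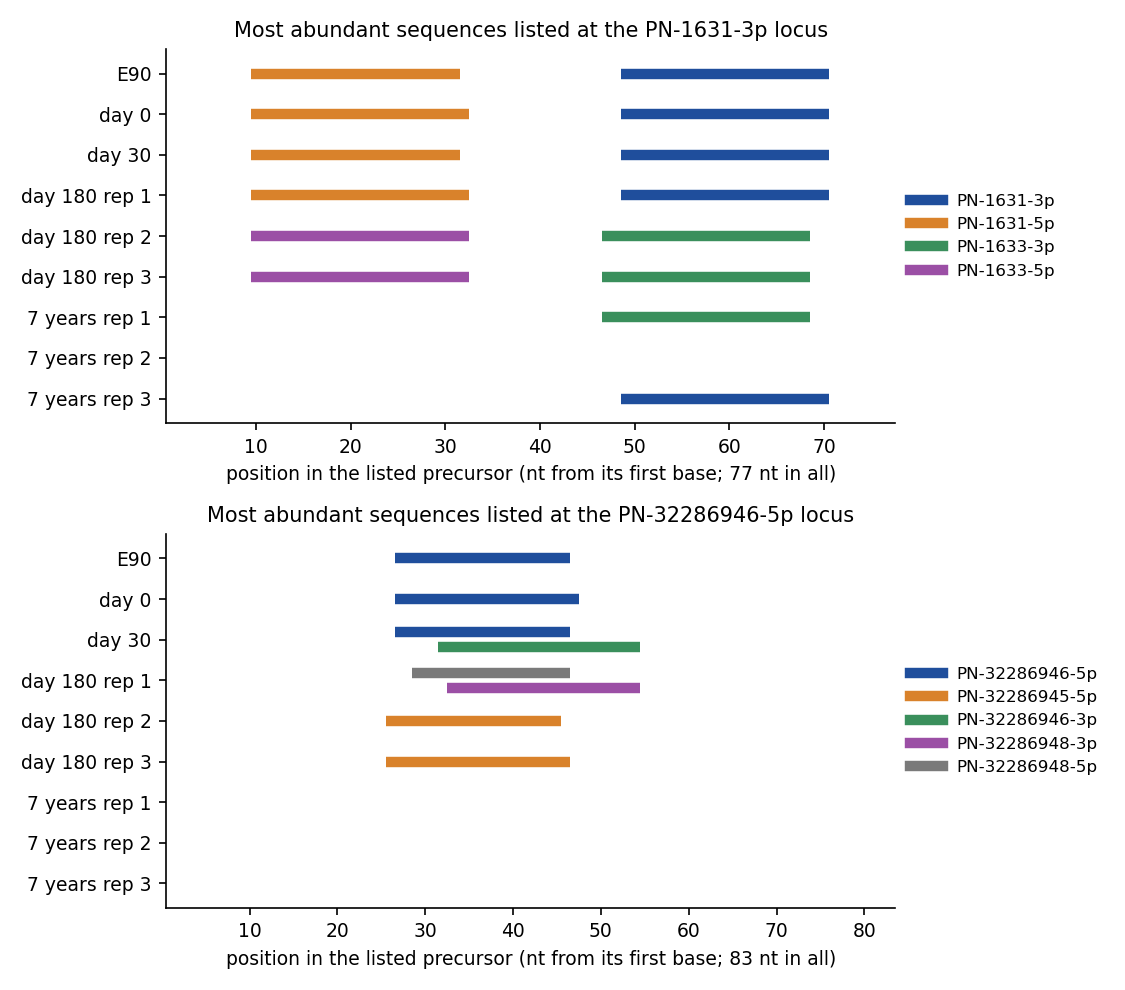
Position of the most abundant sequence of each listed entry along the precursor of PN-1631-3p (top) and PN-32286946-5p (bottom), in nt from the first listed base, with one line per library from E90 (top) to 7 years replicate 3 (bottom). The 3p product of the first hairpin starts at position 49 in 5 libraries and at 47 in 3 libraries, while the 5p product starts at 10 throughout. The products of the second locus overlap one another, with starts from 26 to 33.

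PN-32286946-5p was much less abundant. Its level was highest in the single library of day 0, with a counting interval that overlaps that of E90. The E90 library listed 201 copies (39.9 RPM, 34.5 to 45.8), the day 0 library 225 copies (50.3 RPM, 44.0 to 57.4) and the day 30 library 51 copies (14.7 RPM, 10.9 to 19.3). No later library listed it under this name. Among putative new arms it ranked 6th of 90 at E90, 7th of 129 at day 0 and 10th of 98 at day 30. It made up 1.14 to 2.10% of the putative new copies in these libraries. PN-1631-3p exceeded it 70.7-fold in copies at E90 (exact 95% interval 61.5 to 81.7), 26.4-fold at day 0 (23.1 to 30.3) and 30.4-fold at day 30 (22.98 to 41.0). The neighbours of PN-32286946-5p in rank at E90 were PN-870046-5p with 212 copies and PN-5388442-5p with 193, and both lie within the counting interval of the member. At day 0 they were PN-24885174-5p with 333 copies and PN-870046-5p with 157, both outside its counting interval. At day 30 they were PN-65076824-3p with 55 copies and PN-69264044-3p with 50, both within it. The arm ranked below PN-1631-3p was PN-870046-3p with 573 copies at E90, PN-868884-3p with 804 at day 0 and PN-5388442-3p with 505 at day 30.

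The chromosome 14 locus was detected in no library of 7 years and in every library of day 180, there from other start positions. The limits of a count of 0 at 7 years were 0.481, 0.806 and 0.320 RPM in replicates 1, 2 and 3. Day 180 replicate 1 listed PN-32286948-5p, which starts 2 bases downstream of PN-32286946-5p, with 17 copies (1.39 RPM). Day 180 replicates 2 and 3 listed PN-32286945-5p, which starts 1 base upstream, with 9 copies (0.862 RPM) and 4 copies (0.443 RPM). Each of the 3 start positions carries a different seed. The limits at 7 years overlap the day 180 levels of 0.443 to 1.39 RPM.

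The products named 5p and 3p at this locus were not opposite arms. PN-32286946-3p (day 30, 3 copies) covered bases 32 to 54 of the precursor and shared 15 bases with PN-32286946-5p, which covered bases 27 to 46. PN-32286948-3p (day 180 replicate 1, 4 copies) covered bases 33 to 54. The predicted fold had −43.1 kcal/mol, or −0.52 kcal/mol per nt. Of the putative new precursors 70.0% were less stable per nt, and of the conserved ones 91.3%. In this fold 14 of the 20 bases of PN-32286946-5p were paired, 6 of them with other bases of the product itself, so the product ran across the terminal loop. The products named 3p crossed the same loop, with 14 of 23 bases of PN-32286946-3p and 12 of 22 of PN-32286948-3p paired within themselves. PN-1631-3p and its 5p arm, by contrast, had no base paired within themselves.

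The members also differed in composition. PN-32286946-5p had a GC content of 80%, above that of 90.6% of the 395 putative new arms left after identical entries were merged. PN-1631-3p had 59.1%, near the median of putative new arms of 55.6%, against 43.5% for conserved arms. PN-1631-3p was 22 nt long in every library that listed it, and PN-32286946-5p was 20 nt at E90 and day 30 and 21 nt at day 0. None of the 8 seeds of the entries at these loci occurred in another arm of either table, conserved arms included, so they form no seed group with a named family there.

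Within the first 3 stages the members differed in the step from E90 to day 0, and both fell from day 0 to day 30. PN-1631-3p was lower at day 0 than at E90 (0.472-fold, exact 95% interval 0.458 to 0.487) and lower again at day 30 than at day 0 (0.335-fold, 0.316 to 0.354). PN-32286946-5p was 1.26-fold at day 0 relative to E90 (1.04 to 1.54) and 0.291-fold at day 30 relative to day 0 (0.211 to 0.396). Each stage had 1 library here, so these ratios have no replicate check. Between replicates, arms with at least 100 copies on average had a median coefficient of variation of 33.2% at 7 years (12 arms) and 30.3% at day 180 (23 arms), and the difference of PN-32286946-5p between day 0 and E90 was smaller than that. Another scaling used the summed copies of both tables as library size in place of high-quality reads. Its log2 ratios of day 0 to E90 were −0.59 for PN-1631-3p, against −1.08, and 0.83 for PN-32286946-5p, against 0.34. Those of day 30 to day 0 were −0.70 for PN-1631-3p, against −1.58, and −0.90 for PN-32286946-5p, against −1.78. The coefficient of variation above is that of single libraries, with a 90th percentile of 59.3% at 7 years and 43.6% at day 180. A ratio between single libraries varies more, so whether 0.83 exceeds the spread between replicates cannot be told. By falling level the stages of the 3p arm of PN-1631 ran E90, day 0, day 30, day 180 and 7 years. The order of the first 3 stages rests on single libraries whose levels were used to choose the member. All day 180 libraries lay below the day 30 library and above all 7 years libraries. For the chromosome 14 locus day 0 and E90 in RPM were not separated beyond the spread between replicates, day 30 lay below both, and day 180 lay below day 30. Its limits at 7 years overlap the levels at day 180.

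The PN-1631 hairpin carried most of the fetal level of the putative new miRNAs. The summed putative new arms stood at 3484 RPM at E90, 2399 at day 0, 1272 at day 30, 612 ± 90.3 at day 180 and 327 ± 40.5 at 7 years (SD, n = 3 for both of the last). The PN-1631 hairpin, both arms and all entries, made up 81.5% of this sum at E90, 55.9% at day 0 and 35.3% at day 30. Its share was 1.70 to 2.85% at day 180 and at most 0.343% at 7 years. Without the hairpin the sums were 645 RPM at E90, 1058 at day 0, 823 at day 30, 599 ± 91.1 at day 180 and 327 ± 39.9 at 7 years. The day 180 mean was 0.176-fold that of E90 with the hairpin and 0.929-fold without it. At 7 years the mean was 0.535-fold that of day 180 with the hairpin and 0.545-fold without it. Without the hairpin E90 was no longer the highest stage, while the ratio of 7 years to day 180 was nearly the same. PN-1631-3p was chosen for its levels up to day 30, so its removal was bound to lower the sums of those stages most. Each of those sums is also a single library. The values with and without the hairpin are therefore a description and carry no test.

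**Figure D4:**
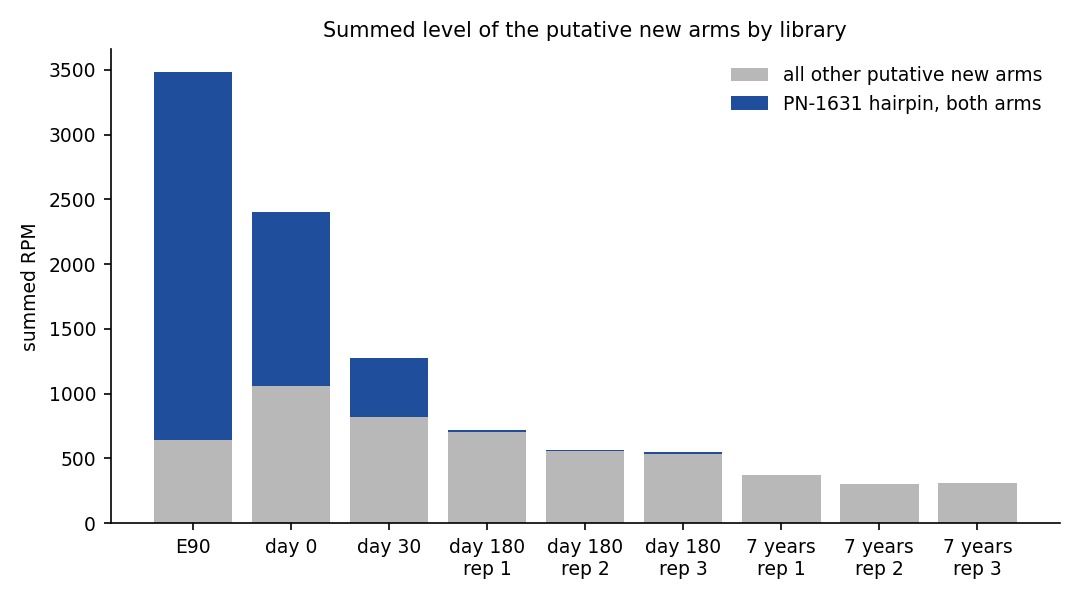
Summed level in RPM of all putative new arms in each library, split into the PN-1631 hairpin (both arms, top of each bar) and all other putative new arms (bottom). The hairpin makes up 81.5% of the bar at E90, and the remainder is highest at day 0 (1058 RPM).

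The comparison of 7 years with day 180 has replicates at both ages and was not used to choose the members. It asks whether the hairpins differ between aged and young adult muscle. Summed over the entries that share at least 16 bases, the 3p arm of PN-1631 averaged 0.640 ± 0.641 RPM at 7 years and 12.2 ± 2.55 RPM at day 180 (SD, n = 3 each), which is 19.1-fold lower at 7 years. This fold rests on 8, 0 and 6 copies at 7 years and was 38.2 without 7 years replicate 1 and 12.7 without 7 years replicate 2. All 3 libraries of 7 years lay below all 3 of day 180 (two-sided exact permutation p = 0.1, the smallest that 3 against 3 allows). In the edgeR quasi-likelihood fit with overlapping entries joined, the arm fell at 7 years relative to the other arms (log2 fold change −3.26, SE 0.60, edgeR adjusted p = 0.0211). In that fit 5 of 151 arms were called, which is 3.31%. The call ended without day 180 replicate 1 (edgeR adjusted p = 0.0929) or replicate 3 (0.0676), with log2 fold changes of −3.43 and −2.97. It held with the 6 libraries of these ages alone (−3.23, edgeR adjusted p = 0.0440). With total reads as the only scaling, in place of TMM factors, the fit shifted the log2 fold changes of the joined arms by a median of −0.81 and gave −4.09 for this arm (edgeR adjusted p = 0.00125).

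Taken as separate entries, as the table lists them, neither entry was called. PN-1631-3p averaged 0.213 ± 0.369 RPM at 7 years and 3.81 ± 6.59 RPM at day 180 (SD, n = 3 each). Its log2 fold change was −2.69 (SE 2.66, edgeR adjusted p = 0.767), and that of PN-1633-3p was −3.56 (SE 1.997, edgeR adjusted p = 0.593). Of the 175 entries tested 6 were called, which is 3.43%. Without day 180 replicate 1, the only one that lists PN-1631-3p, its log2 fold change turned to 5.49 (edgeR adjusted p = 0.387), a value set by a group at 0 and no estimate of size.

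The chromosome 14 locus averaged 0 RPM at 7 years and 0.897 ± 0.473 RPM at day 180 (SD, n = 3 each). This sum holds the entries that share at least 16 bases with a listed sequence of PN-32286946-5p, which leaves out PN-32286948-3p. With the floor of 3 copies put in each library of 7 years, the level there would be 1.68-fold lower. The exact permutation p was 0.1, again the smallest possible, with empty cells counted as 0. The limits of a count of 0 at 7 years overlap the day 180 levels, so the separation of the ages rests on those zeros. With overlapping entries joined, which adds PN-32286948-3p (4 copies in day 180 replicate 1), the locus was not called (edgeR adjusted p = 0.0612). It passed the filter of that fit through the libraries up to day 30, for whose levels it was chosen, and failed the filter with the 6 libraries of these ages alone, which leave it no adjusted p. Under its own name PN-32286946-5p was at 0 in all 6 libraries, which leaves no fold.

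**Figure D5:**
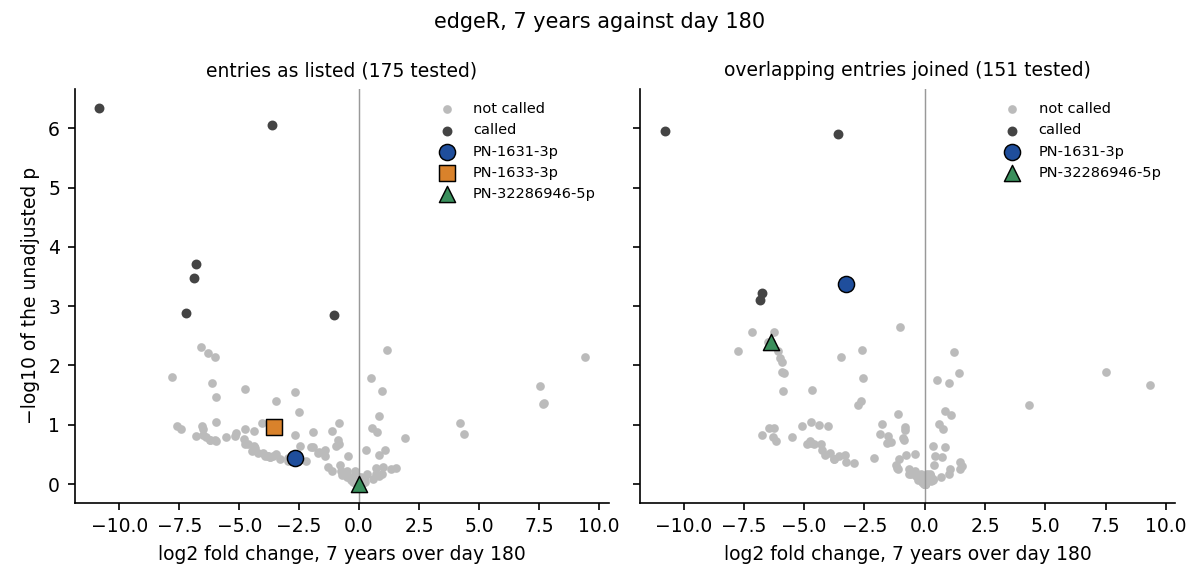
Fitted log2 fold change, 7 years over day 180, against −log10 of the unadjusted p from edgeR, for entries as listed (left, 175 tested) and with overlapping entries joined (right, 151 tested). PN-1631-3p moves from an adjusted p of 0.767 (left) to 0.0211 (right). PN-32286946-5p is at 0 in all 6 libraries on the left, and its fold on the right is set by a group at 0 and is no estimate of size.

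Of all arms listed in at least 3 libraries, those with the pattern most like PN-1631-3p over the 9 libraries were PN-4010172-5p (Pearson r = 0.98, Spearman rho = 0.93), miR-449a-5p (0.98 and 0.89) and miR-454-3p (0.97 and 0.87), out of 174 candidates. Those most like PN-32286946-5p were miR-376d-3p (0.99 and 0.84), miR-655-3p (0.99 and 0.82), both of the imprinted DLK1-DIO3 cluster of miRNAs, and PN-870046-3p (0.99 and 0.84), out of 176. These correlations, on log2(RPM + 0.5), describe points that share the library and its depth and that are set mainly by the step between day 30 and day 180. They use each member under its own name, so it counts as 0 where another entry of its locus was listed instead. Like PN-1631-3p, PN-4010172-5p was listed at day 180 in replicate 1 alone (0.408 RPM). Correlations of the summed entries are not given here. At E90, day 0 and day 30 PN-1631-3p stood at 2819, 1331 and 446 RPM, and miR-454-3p, a conserved miRNA, stood at 43.4, 23.9 and 13.5 RPM.

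Libraries held 3476614 to 12259667 high-quality reads, and the copies of both tables were 0.147 to 2.70% of them, highest at E90 and lowest at 7 years. These shares move in the same direction as the level of PN-1631-3p, and their part in it was not tested. Of 7 muscle markers on a fixed list 2, miR-1 and miR-208a, were among the arms analysed, and the other 5 were not analysed here. The list summed to 0 to 1.07 RPM from day 180 on and 0.992 to 34.0 RPM up to day 30, with miR-208a at 0 at E90 and from day 180 on. At day 0 miR-208a-3p alone gave 21.7 of the 34.0 RPM. The sum covers only the arms analysed and is no measure of the muscle content of a library. The blood list (1 of 5 measured, miR-223) summed to 0.959 to 7.57 RPM from day 180 on and 2.58 to 5.59 RPM up to day 30. The epithelial list (3 of 5 measured) summed to 0.641 to 1.96 RPM from day 180 on and 3.803 to 11.1 RPM up to day 30, and the endothelial and neuronal lists had no arm analysed here. The part of these cell types in the members' levels was not tested. In a tissue sample fewer cells of a type and less RNA per cell cannot be told apart.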

How the data were processed

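Per the labels' protocols, RNA of 10 to 40 nt was cut from a gel and read on an Illumina Genome Analyzer II. The deposited tables hold counts, that is, whole copies per arm and library, with the most abundant sequence, per the file headers. The headers also name the assembly Sscrofa10 and each library's high-quality reads. The aligner was not given in the sources used here, nor was the caller. Empty cells (3335 of 4734) were counted as 0. Only 5 listed values were under 3 copies, so 3 copies were taken as the floor.

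Identical putative new entries were merged (426 to 395). The fit used edgeR 4.0.16 under R 4.3.3 over all arms of both tables (TMM factors on the high-quality reads, filterByExpr with minimum count 10 and total 15, 1 term per stage, robust quasi-likelihood test, Benjamini-Hochberg threshold 0.05), tested on simulated data first. Exact permutation tests of sums, two-sided, used scipy 1.17.1, and hairpins folded with RNAfold (ViennaRNA 2.7.2). Alternatives were DESeq2 1.42.0, other scaling, no filter, a floor of 2 copies in empty cells, joined entries, a replicate block and each replicate left out. Named arms were the members, entries of their loci, arms of equal seed, the 3 arms of most like pattern and the neighbours in rank. The members and lists were chosen with earlier results of these data known.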

Additional observations from a re-analysis of the deposited data

How the results depend on the processing

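For 7 years against day 180, the 6 calls among entries as listed became 14 with total reads in place of TMM, 2 with the 6 libraries of these ages alone, 1 with the replicate block on those libraries, and 2 to 8 when a replicate was left out. With overlapping entries joined, 5 calls became 8 with DESeq2 size factors, 27 with total reads, 18 without a filter, 14 by DESeq2's Wald test, 3 with the 6 libraries alone, 2 with the replicate block, 12 with empty cells set to 2 copies, and 2 to 8 when a replicate was left out. These settings on joined entries were chosen after seeing the data. The cause of these differences was not tested. PN-1631-3p as listed had log2 fold changes of −8.30 to 5.49 when a replicate was left out, positive without day 180 replicate 1, and −3.26 with entries joined, where it was called. The joined arm had −3.97 to −2.92 when a replicate was left out (edgeR adjusted p from 0.0184 to 0.0929), with −3.43 and −2.97 and no call without day 180 replicates 1 and 3, −3.47 without a call under the replicate block (edgeR adjusted p = 0.140), and kept its call in the other 6 settings. The joined chromosome 14 locus was called with total reads (−5.89), without a filter (−6.26) and by DESeq2's Wald test (−4.10), folds that rest on a group at 0. Equal replicate numbers showed no pairing, with correlations of deviations of −0.013, −0.15 and −0.15. With the summed copies of both tables as library size, the log2 ratios of day 0 to E90 were −0.59 for PN-1631-3p (−1.08 by high-quality reads) and 0.83 for PN-32286946-5p (0.34). Those of day 30 to day 0 were −0.70 (−1.58) and −0.90 (−1.78). PN-1631-3p as listed and PN-32286946-5p failed the filter with the 6 libraries alone, so those settings gave no value. Levels at 7 years rest on at most 8 copies.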
